A study of Mus musculus with 12 samples.

Results

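Chromatin modifiers and remodelers were examined in ID8 cells, which are murine ovarian cancer cells that arose from ovarian surface epithelium, after exposure to cisplatin, a platinum drug that crosslinks DNA. The members were all protein-coding genes of the deposited expression table whose symbol begins with Kmt, Kdm, Hdac, Kat, Chd or Brd and a digit, with Setd or Smarc, or is Ezh1, Ezh2 or one of Sirt1 to Sirt6. This name rule, which used no measured value, took in 92 of the 14852 genes of the table, 11830 of which were protein-coding. Sorted by symbol alone, 20 were classed as histone methyltransferases (methyl writers) and 8 as acetyltransferases (acetyl writers). A further 16 were classed as demethylases, 16 as deacetylases, 23 as remodelers, mostly of the SWI/SNF, ISWI and CHD families, and 7 as bromodomain readers. The classes follow names, so they include Setd3, known for methylating actin, and Kmt2e, not known as an active histone methyltransferase. They also include the tubulin deacetylase gene Hdac6 and the mitochondrial sirtuin genes Sirt3, Sirt4 and Sirt5. The rule also took in 2 loci named after an opposite-strand neighbour, Brd3os and Chd3os, which are kept apart because their names give no chromatin function.

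The study compared cisplatin-treated ID8 cells with control ID8 cells and addressed the part of N4-acetylcytidine (ac4C), an acetylated base that NAT10 places in RNA. Part of the fragmented RNA was sequenced as input and part after pull-down with an ac4C antibody (IP), giving 12 libraries in 4 groups of 3: cisplatin IP, cisplatin input, control IP and control input. Levels are given for each of the 6 input libraries, and the IP libraries are represented by the authors' deposited peak table. All samples are of a single cell line, and the labels give neither the dose nor the duration of cisplatin. The labels do not say whether replicates came from separate cultures, and the p-values therefore rest on a spread among libraries that could be technical.

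Nucleosomes carry acetyl and methyl groups on histone tails, which writers add, erasers remove and readers bind, while remodelers spend ATP to slide, evict or restructure nucleosomes. Most of these enzymes work inside large complexes, and many exist as related pairs that can take the same place in a complex, such as the ATPases SMARCA4 (BRG1) and SMARCA2 (BRM) of SWI/SNF. Histone acetylation is usually found with open, transcribed chromatin, whereas the meaning of methylation depends on the residue that carries it.

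Fragments in the listed genes numbered 23503412, 29280272 and 21437552 in cisplatin libraries 1 to 3, and 20789536, 21111362 and 19921365 in control libraries 1 to 3. Over the tested genes, Pearson r was 0.989 to 0.995 among cisplatin libraries, 0.995 to 0.996 among control libraries, and 0.833 to 0.847 between the treatments. The keratin genes Krt8, Krt18 and Krt19 and the mesothelial genes Msln and Upk3b were at 55.8 FPKM or more in all 6 libraries, while Krt7 was near 0. Another mesothelial marker, Wt1, averaged 12.4 ± 0.599 FPKM in cisplatin libraries and 45.1 ± 1.08 FPKM in control libraries. Of 6 leukocyte markers the table held Cd68 alone (8.89 ± 1.21 FPKM in cisplatin and 2.41 ± 0.175 FPKM in control libraries), and of 4 endothelial markers Tek alone (2.64 ± 0.146 FPKM in cisplatin and 0.846 ± 0.109 FPKM in control libraries). Their part in the results was not tested.

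The question for the input RNA was whether writers, erasers and remodelers moved together after cisplatin. They did not move one way as classes: large falls of Kat8, Kmt5c and Smarca2 stood beside moderate rises of Smarca4, Chd1, Kmt5a, Kat2a and Brd3. FPKM scales the fragments of a gene by its length and by the library total, and changes are given as the difference of log2(FPKM + 1), cisplatin minus control, which understates the change of genes with low values. A gene was tested where it reached 1 FPKM in at least 3 of the 6 libraries, and was called at an adjusted p under 0.05 in limma with Benjamini-Hochberg adjustment over all genes. Of the 92 members, 88 were tested, and 32 of these were higher, 34 lower and 22 not called. Among all 11449 tested genes, 40.1% were called higher and 41.1% lower, so 81.3% were called either way, against 75% of the tested members. Of the 88, 2 entered the test through their cisplatin libraries alone and 4 through their control libraries alone, so these had to differ and their calls are no support. They are Setd4 and Sirt5 (cisplatin), and Hdac4, Sirt3, Smarca1 and Brd3os (control).

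The members changed by small amounts. Their median log2 change was -0.06, against -0.003 over all tested genes, and their median absolute log2 change was 0.31, against 0.52 over all tested genes. A called change of at least 1 on the log2 scale was found in 1 member upwards (Setd4) and in 6 downwards (Kat8, Brd3os, Kmt5c, Sirt3, Smarca2 and Hdac4). Of these 7, Setd4, Brd3os, Sirt3 and Hdac4 are among the genes that passed the filter in a single treatment. Among all tested genes, 23.9% had such a change. The numbers depend on the scale, with 2 upwards and 8 downwards at a pseudocount of 0.1 FPKM. The treatments did not overlap in 70 of the 88 members, and in 84.2% of all tested genes. Summed over all 92 members, the level was 1482 to 1517 FPKM in cisplatin libraries and 1489 to 1495 FPKM in control libraries. The sum over all listed genes was larger after cisplatin, 275194.8 to 278678.0 FPKM, against 258545.5 to 259158.3 FPKM in control libraries. As a share of that sum, the members' total was therefore lower in cisplatin libraries, and the main fit makes no adjustment for it. In bulk RNA, fewer cells with a transcript and less of it per cell cannot be told apart.

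By role, methyl writers split evenly, with 8 of 20 higher and 8 lower (median log2 change -0.11). Acetyl writers also split, with 3 of 8 higher and 3 lower (median -0.02). Of the demethylases, 7 of 16 were higher and 4 lower (median 0.05), and of the deacetylases, 6 of 15 tested were higher and 5 lower (median 0.14). Remodelers had the lowest median, -0.22, with 4 of 21 tested members higher and 10 lower. Bromodomain readers were called in all 7 cases, 4 higher and 3 lower (median 0.11). Taking the classes of both kinds of mark together, as sorted by symbol, 11 of 28 writers were higher and 11 lower, and 13 of 31 erasers were higher and 9 lower. Over all tested genes 40.1% were higher and 41.1% lower. The class counts include Setd4, Sirt3, Sirt5, Hdac4 and Smarca1, which passed the filter in a single treatment and had to differ. These counts are descriptions, and the difference between the classes was not tested.

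**Figure D1:**
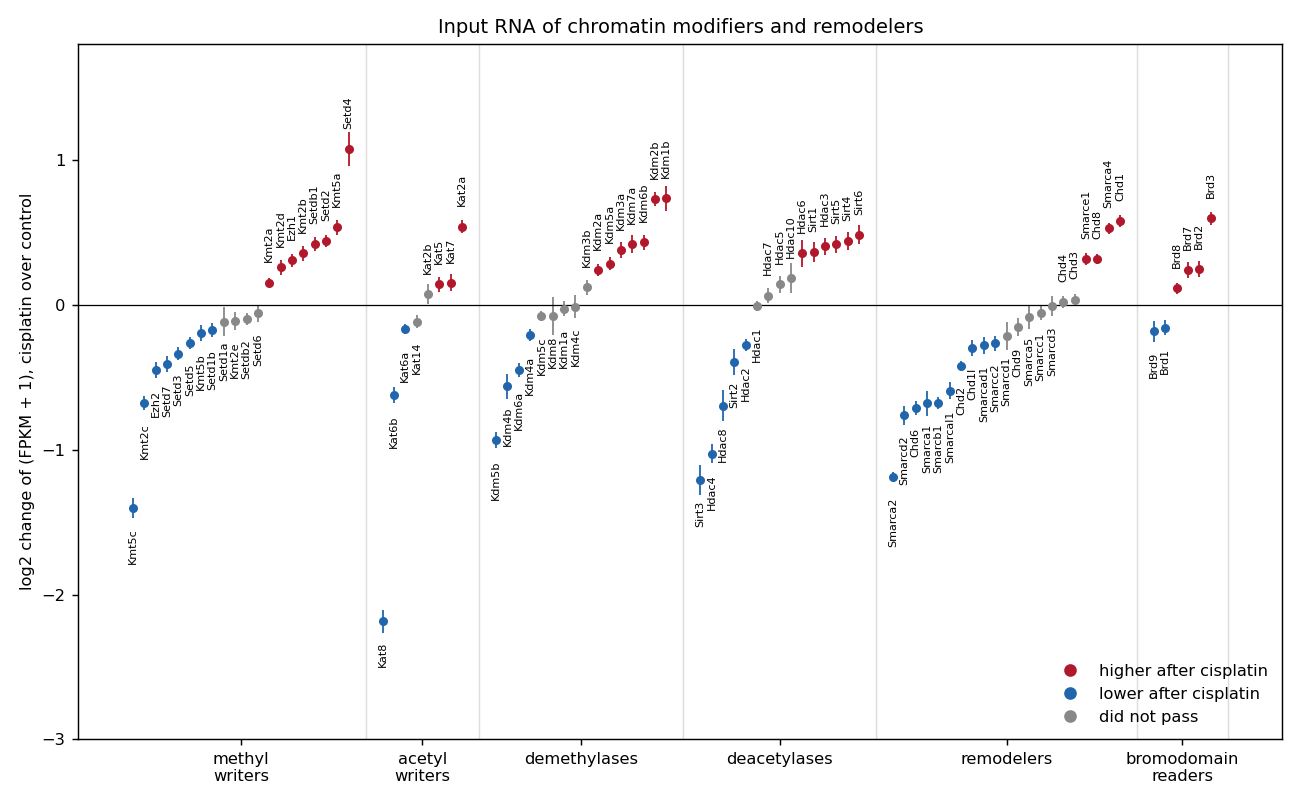
Log2 change of FPKM + 1, cisplatin minus control input, for the tested members of the 6 classes except 1 reader, sorted within the class; bars are limma's standard errors (n = 3 libraries per treatment), and colours mark the call at an adjusted p of 0.05. Each class has members on both sides of 0, and Kat8 at -2.19, Kmt5c at -1.40, Sirt3 at -1.21 and Smarca2 at -1.19 lie lowest, while Setd4 at 1.07 lies highest.

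Among the methyl writers, the enzymes of histone H4 moved apart. Kmt5c (ENSMUSG00000059851, chr7:4740092-4747514 in the GRCm38.p6 gene table), which adds the last methyl groups to a lysine of histone H4 in heterochromatin, measured 1.45, 1.16 and 1.19 FPKM in cisplatin libraries 1 to 3, against 5.09, 5.04 and 4.83 FPKM in control libraries 1 to 3. All cisplatin values were below all control values, and the log2 change was -1.40 (SE 0.068, adjusted p = 1.37e-06). Kmt5a, which adds the first methyl group to that lysine, measured 74.6, 69.6 and 77.0 FPKM in cisplatin libraries, against 51.1, 48.0 and 52.8 FPKM in control libraries (log2 change 0.53, adjusted p = 3.90e-05). Here the groups did not overlap either, with cisplatin above control. Kmt5b, which also acts after KMT5A, averaged 2.41 ± 0.112 FPKM in cisplatin and 2.91 ± 0.0864 FPKM in control libraries (mean ± SD, n = 3, as for all means that follow). Its call, lower at adjusted p = 0.0143, was lost with quantile normalization (adjusted p = 0.165) and without control replicate 1 or 3.

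The MLL and SET1 enzymes, which methylate the lysine of histone H3 found at active promoters and enhancers, also differed among themselves. Kmt2c, an enhancer enzyme, measured 7.60, 7.32 and 8.20 FPKM in cisplatin libraries, against 12.8, 12.8 and 13.1 FPKM in control libraries (log2 change -0.68, adjusted p = 1.02e-05). Its close relative Kmt2d averaged 25.5 ± 1.71 FPKM in cisplatin and 21.1 ± 0.521 FPKM in control libraries, and was called higher. Kmt2b (log2 change 0.36) and Kmt2a (0.15) were higher too, although Kmt2a lost its call with a common FPKM sum per library (0.06, adjusted p = 0.144). Setd1b was lower (log2 change -0.17, adjusted p = 0.00957), and Setd1a, with 2.02 ± 0.410 FPKM in cisplatin and 2.26 ± 0.109 FPKM in control libraries, was not called. Kmt2e, whose product is not known as an active histone methyltransferase, was not called either.

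Of the Polycomb methyltransferases, which place the repressive mark on histone H3, Ezh2 averaged 4.59 ± 0.195 FPKM in cisplatin and 6.63 ± 0.264 FPKM in control libraries, and Ezh1 averaged 9.83 ± 0.250 FPKM in cisplatin and 7.76 ± 0.195 FPKM in control libraries. Ezh2 was called lower (log2 change -0.45) and Ezh1 higher (0.31). Setd2, which trimethylates histone H3 along transcribed genes, measured 33.3, 33.3 and 36.2 FPKM in cisplatin libraries, against 24.7, 25.01 and 25.2 FPKM in control libraries (log2 change 0.44, adjusted p = 3.53e-05). Setdb1, a heterochromatin enzyme, measured 10.97, 10.3 and 11.2 FPKM in cisplatin libraries, against 8.004, 7.82 and 7.71 FPKM in control libraries (log2 change 0.42). Neither gene had overlapping treatments, with cisplatin higher. Setd4 (ENSMUSG00000022948), a less studied SET domain gene, measured 2.30, 2.58 and 1.92 FPKM in cisplatin libraries, against 0.320, 0.697 and 0.649 FPKM in control libraries (log2 change 1.07). Setd3, known for methylating actin, Setd5 and Setd7 were lower, by 0.34, 0.26 and 0.41 on the log2 scale, and Setd6 and Setdb2 were not called.

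The largest fall of any member was that of an acetyl writer. Kat8 (MOF; ENSMUSG00000030801, chr7:127912517-127925838 in GRCm38.p6), the main acetyltransferase for a tail lysine of histone H4, measured 3.89, 3.10 and 3.95 FPKM in cisplatin libraries, against 19.9, 20.7 and 19.6 FPKM in control libraries. The control mean was 5.50 times the cisplatin mean, and the log2 change was -2.19 (SE 0.078, adjusted p = 4.15e-07). Its span overlaps that of Prss8, which is not in the expression table. Kat2a (GCN5), the catalytic subunit of SAGA, went the other way, with 24.3, 26.7 and 24.8 FPKM in cisplatin libraries, against 16.8, 17.7 and 16.8 FPKM in control libraries (log2 change 0.54, adjusted p = 2.21e-05). Its relative Kat2b (PCAF) overlapped between treatments, at 22.1 ± 2.32 FPKM in cisplatin and 20.8 ± 0.470 FPKM in control libraries, and was not called.

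The MOZ and MORF enzymes Kat6a and Kat6b were both lower. Kat6a measured 35.0, 35.0 and 33.4 FPKM in cisplatin libraries, against 38.9, 38.8 and 38.8 FPKM in control libraries (log2 change -0.17, adjusted p = 0.00181). Kat6b measured 1.79, 1.85 and 1.91 FPKM in cisplatin libraries, against 3.26, 3.42 and 3.50 FPKM in control libraries (log2 change -0.62, adjusted p = 2.68e-05). Kat5 (TIP60), which acetylates histones at DNA breaks as part of NuA4, measured 21.7, 21.0 and 22.4 FPKM in cisplatin libraries, against 18.6, 20.8 and 19.5 FPKM in control libraries. Its log2 change of 0.14 (adjusted p = 0.032) was lost under 8 of 13 alternative settings, among them the common sum (0.04, adjusted p = 0.415). Kat7 (HBO1), which acts at replication origins, rested on as little (0.15, adjusted p = 0.0431, common sum 0.06, adjusted p = 0.37) and its groups overlapped. Kat14, part of the ATAC complex, was not called, with 12.3 ± 0.542 FPKM in cisplatin and 13.5 ± 0.493 FPKM in control libraries.

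**Figure D2:**
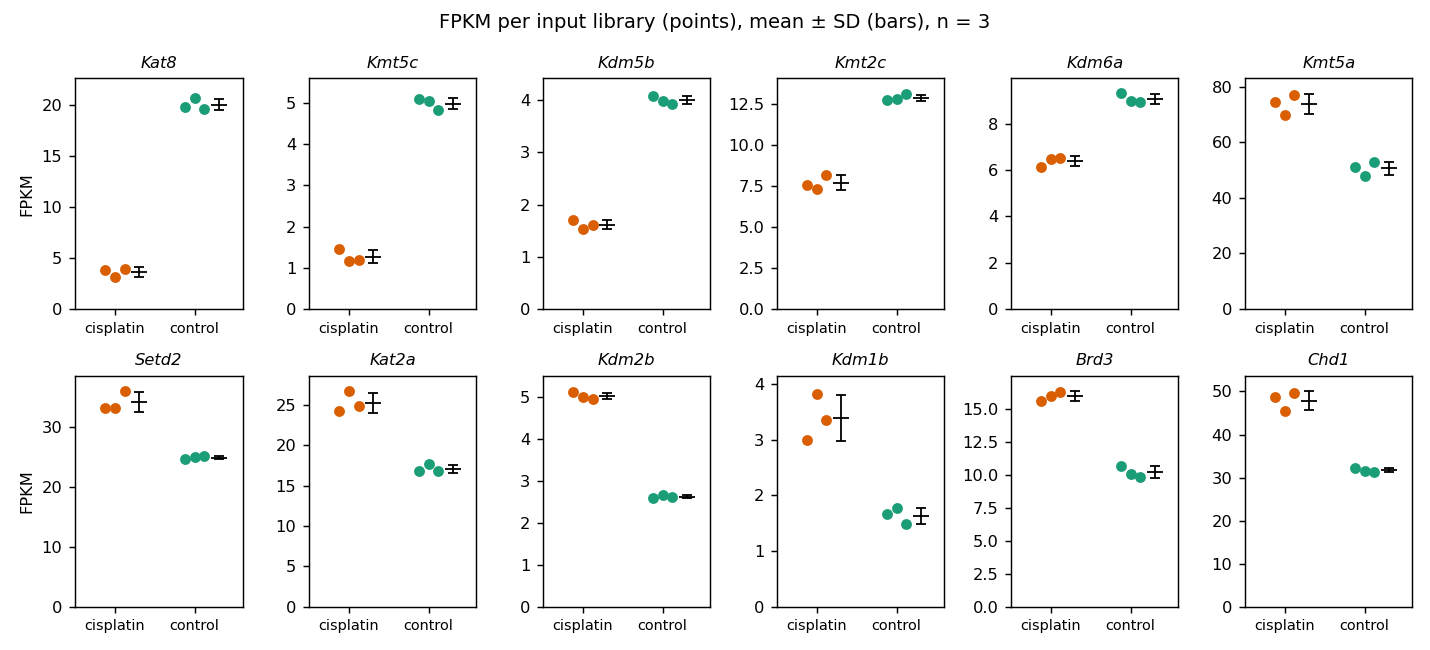
FPKM per input library (points) with mean ± SD (bars, n = 3 per treatment) for 12 members, cisplatin left and control right, each panel on its own axis from 0. The 12 were picked from members with the smallest adjusted p of their class, so their separation is no support. In each the cisplatin libraries lay wholly on one side of control, for example Kat8 at 3.10 to 3.95 FPKM in cisplatin and 19.6 to 20.7 FPKM in control. The treatments did not overlap in 70 of the 88 tested members and in 84.2% of all tested genes.

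No demethylase had a called change of 1 or more on the log2(FPKM + 1) scale, but with a pseudocount of 0.1 FPKM Kdm5b (-1.26) and Kdm1b (1.01) did. Kdm5b, which removes methyl groups of the active promoter mark, measured 1.70, 1.53 and 1.61 FPKM in cisplatin libraries, against 4.08, 3.98 and 3.93 FPKM in control libraries (log2 change -0.93, adjusted p = 3.34e-06). Kdm5a, with the same activity, was higher, at 13.7 ± 0.130 FPKM in cisplatin and 11.1 ± 0.459 FPKM in control libraries, and Kdm5c was not called (28.4 ± 0.869 FPKM in cisplatin and 30.1 ± 0.647 FPKM in control libraries). The 2 demethylases of the Polycomb mark also parted. Kdm6a (UTX) measured 6.13, 6.47 and 6.51 FPKM in cisplatin libraries, against 9.31, 8.98 and 8.92 FPKM in control libraries (log2 change -0.45, adjusted p = 5.98e-05). Kdm6b (JMJD3) measured 14.7, 15.2 and 13.7 FPKM in cisplatin libraries, against 10.7, 10.5 and 10.3 FPKM in control libraries (log2 change 0.43, adjusted p = 0.000102).

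The rises among demethylases were led by a flavin-dependent enzyme and a Polycomb-linked one. Kdm1b (LSD2) measured 3.00, 3.83 and 3.36 FPKM in cisplatin libraries, against 1.66, 1.77 and 1.48 FPKM in control libraries (log2 change 0.74, adjusted p = 0.000119). Kdm2b, which brings a Polycomb complex to unmethylated CpG islands, measured 5.10, 4.98 and 4.95 FPKM in cisplatin libraries, against 2.60, 2.65 and 2.61 FPKM in control libraries (log2 change 0.73, adjusted p = 6.51e-06). Neither gene had overlapping groups. Kdm1b overlaps Dek, which was more abundant, at 58.8 to 66.7 FPKM in cisplatin libraries and 53.8 to 56.4 FPKM in control libraries, and reads shared between them were not tested. Kdm1a (LSD1), the better known flavin enzyme, was not called at 11.8 ± 0.257 FPKM in cisplatin and 12.1 ± 0.656 FPKM in control libraries. Kdm2a, Kdm3a and Kdm7a were higher by 0.24, 0.38 and 0.42 on the log2 scale. Of the Kdm4 enzymes, which act on heterochromatin and transcription marks, Kdm4a and Kdm4b were lower (log2 changes -0.21 and -0.56) and Kdm4c was not called. The other demethylases not called were Kdm3b and Kdm8.

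Deacetylases of class I differed by member. HDAC1 and HDAC2 are catalytic subunits of NuRD, SIN3 and CoREST, HDAC3 is that of NCoR, and HDAC8 acts on cohesin. Hdac1, the most abundant deacetylase at 69.8 ± 1.36 FPKM in cisplatin and 70.3 ± 2.14 FPKM in control libraries, was not called. It was called lower with a common FPKM sum (log2 change -0.11, adjusted p = 0.0176) and with quantile normalization (-0.19). Hdac2 measured 10.6, 10.8 and 10.1 FPKM in cisplatin libraries, against 12.8, 12.96 and 12.9 FPKM in control libraries (log2 change -0.27). Hdac3 measured 13.3, 14.6 and 12.5 FPKM in cisplatin libraries, against 10.2, 9.85 and 9.65 FPKM in control libraries (log2 change 0.40). Hdac8 measured 2.14, 1.46 and 2.12 FPKM in cisplatin libraries, against 3.50, 3.58 and 4.00 FPKM in control libraries (log2 change -0.70, adjusted p = 0.000563).

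The class II enzyme Hdac4, which shuttles between nucleus and cytoplasm, measured 0.843, 0.851 and 0.700 FPKM in cisplatin libraries, against 2.77, 2.53 and 2.70 FPKM in control libraries (log2 change -1.03). Its relatives Hdac5 and Hdac7 were not called, while Hdac6, a tubulin deacetylase, was higher (5.04 ± 0.535 FPKM in cisplatin and 3.72 ± 0.408 FPKM in control libraries). Among the NAD-dependent sirtuins, 4 of 6 were higher and 2 lower, against 40.1% and 41.1% of all tested genes. These counts include Sirt3 and Sirt5, which passed the filter in a single treatment, so their calls are no support. The mitochondrial deacetylase gene Sirt3 measured 0.737, 0.521 and 0.349 FPKM in cisplatin libraries, against 2.83, 2.46 and 2.33 FPKM in control libraries (log2 change -1.21). It overlaps Ric8a, which measured 9.26 to 9.95 FPKM in cisplatin libraries and 6.74 to 7.22 FPKM in control libraries. The other mitochondrial sirtuins, Sirt4 (4.62, 4.07 and 4.20 FPKM in cisplatin libraries, against 2.95, 2.99 and 2.76 FPKM in control libraries) and Sirt5, had higher values, as had the nuclear Sirt1 and Sirt6. Sirt2, a mainly cytoplasmic deacetylase, measured 6.11, 6.67 and 5.24 FPKM in cisplatin libraries, against 7.46, 8.31 and 8.78 FPKM in control libraries (log2 change -0.39).

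Remodelers were led by opposite changes of the SWI/SNF ATPases. Smarca2 (ENSMUSG00000024921, chr19:26605073-26778321 in GRCm38.p6) measured 23.6, 22.8 and 22.1 FPKM in cisplatin libraries, against 53.2, 53.3 and 53.3 FPKM in control libraries (log2 change -1.19, SE 0.034, adjusted p = 1.85e-07). Smarca4 (ENSMUSG00000032187, chr9:21616106-21704230 in GRCm38.p6) measured 140.6, 144.7 and 134.2 FPKM in cisplatin libraries, against 96.2, 98.3 and 95.6 FPKM in control libraries (log2 change 0.53, SE 0.036, adjusted p = 6.70e-06). Within a library the ratio of Smarca4 to Smarca2 was 5.96, 6.33 and 6.08 in cisplatin libraries, against 1.81, 1.84 and 1.79 in control libraries. With Smarca4 higher and Smarca2 lower in every cisplatin library, these ratios had to separate, so their test is no support. Every cisplatin ratio lay above every control ratio, with p = 0.1 in a two-sided exact permutation test, the smallest that 3 libraries against 3 can give.

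The core subunits of SWI/SNF were mostly lower or not called. Smarcb1, a tumour suppressor subunit, measured 14.8, 14.3 and 13.7 FPKM in cisplatin libraries, against 23.2, 23.9 and 23.2 FPKM in control libraries (log2 change -0.68, adjusted p = 2.96e-06). Smarcd2 and Smarcc2 were lower, by 0.76 and 0.26 on the log2 scale, and Smarce1 was higher by 0.32. Smarcc1 (49.2 ± 3.51 FPKM in cisplatin and 51.0 ± 0.494 FPKM in control libraries), Smarcd1 and Smarcd3 were not called. The ISWI ATPase Smarca5 was not called either, and its relative Smarca1 measured 0.437, 0.385 and 0.689 FPKM in cisplatin libraries and 1.38, 1.43 and 1.41 FPKM in control libraries. Further ATPases that act at forks or breaks, Smarcal1 and Smarcad1, were lower by 0.59 and 0.28.

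In the CHD family, Chd1, which remodels nucleosomes on transcribed genes, measured 48.6, 45.4 and 49.6 FPKM in cisplatin libraries, against 32.2, 31.6 and 31.4 FPKM in control libraries (log2 change 0.58, adjusted p = 7.70e-06). Chd2, its closest relative, was lower, at 17.9 ± 0.508 FPKM in cisplatin and 24.3 ± 0.258 FPKM in control libraries. The NuRD ATPases Chd4 (170 ± 8.23 FPKM in cisplatin and 168 ± 1.26 FPKM in control libraries), the most abundant member, and Chd3 were not called. Chd6 measured 6.10, 5.54 and 5.82 FPKM in cisplatin libraries, against 10.2, 10.4 and 9.95 FPKM in control libraries (log2 change -0.71, adjusted p = 7.19e-06). Chd8, a CHD remodeler mutated in human autism, was higher by 0.32, Chd1l, which binds poly(ADP-ribose), was lower by 0.30, and Chd9 was not called.

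Bromodomain proteins bind acetylated lysines. Of the BET readers, Brd3 measured 15.6, 16.0 and 16.3 FPKM in cisplatin libraries, against 10.7, 10.1 and 9.84 FPKM in control libraries (log2 change 0.60, adjusted p = 1.05e-05). Brd2 measured 28.5, 27.1 and 30.7 FPKM in cisplatin libraries, against 22.9, 24.6 and 24.7 FPKM in control libraries (log2 change 0.25). In both genes every cisplatin library lay above every control library. Brd7, of the PBAF form of SWI/SNF, was higher (12.2, 11.2 and 12.5 FPKM in cisplatin libraries, against 9.58, 9.995 and 10.3 FPKM in control libraries). Brd9, of the non-canonical form, was lower at adjusted p = 0.048, Brd1 lower at adjusted p = 0.0281, and Brd8, of the NuA4 complex, higher at adjusted p = 0.0188. These last 3 calls were lost under some alternative settings, for Brd8 also with the common sum (log2 change 0.02, adjusted p = 0.642).

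Ratios were taken within each library for 14 pairs of related genes that were chosen with their values known. In all 14 the cisplatin ratios lay wholly above the control ratios. Where every cisplatin value of the first gene lay above control and every cisplatin value of the second below, this had to follow. Each exact permutation test gave p = 0.1, also after Benjamini-Hochberg adjustment over the 14. As the pairs were chosen and turned with their values known, these tests are no support. Kmt5a over Kmt5c averaged 58.7 ± 6.71 in cisplatin and 10.2 ± 0.714 in control libraries, and Kdm5a over Kdm5b averaged 8.49 ± 0.518 in cisplatin and 2.77 ± 0.104 in control libraries. Some pairs changed which gene was the more abundant per length. Hdac3 over Hdac2 averaged 1.28 ± 0.0609 in cisplatin and 0.769 ± 0.0256 in control libraries, Kmt2b over Kmt2c 1.56 ± 0.176 in cisplatin and 0.710 ± 0.0264 in control libraries, and Kat2a over Kat2b 1.16 ± 0.148 in cisplatin and 0.820 ± 0.0202 in control libraries. Reads of related genes may be split uncertainly by the authors' counting, for which the labels state no rule on shared reads.

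**Figure D3:**
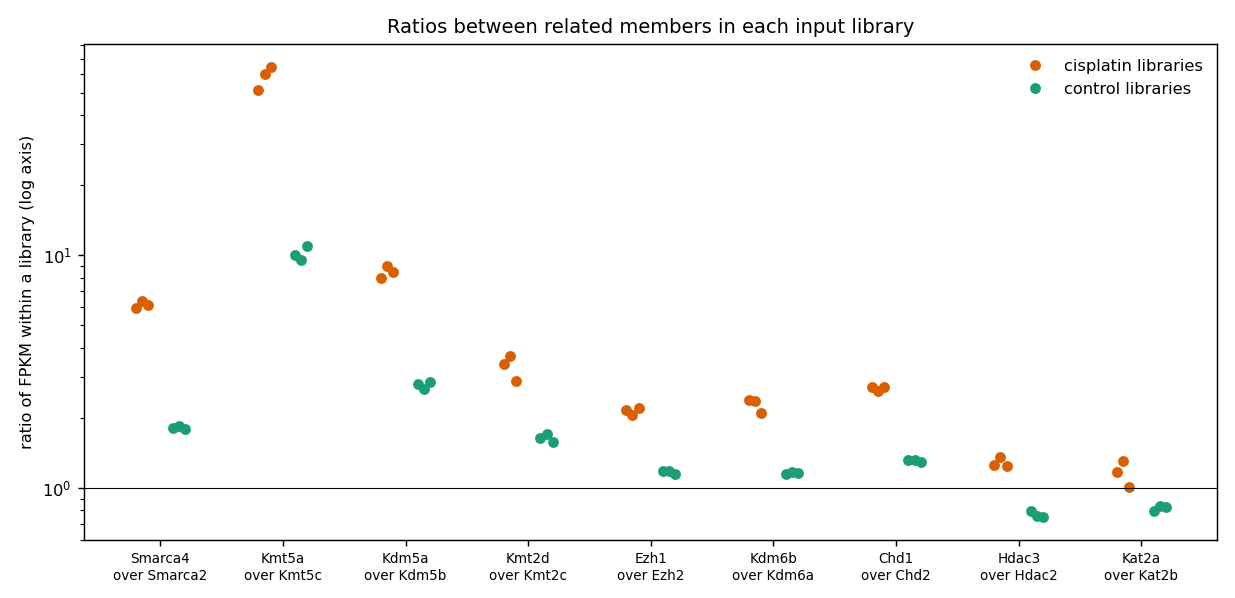
Ratio of the FPKM of related members within each input library, on a log axis, for 9 of the 14 pairs; each point is a library, cisplatin left of control. For Smarca4 over Smarca2 the cisplatin libraries sit at 5.96 to 6.33 and the control libraries at 1.79 to 1.84, and the ratios of Hdac3 to Hdac2 and of Kat2a to Kat2b cross 1 between the treatments.

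Of the members not tested, 3 were near 0 in a treatment. Chd5, a neuronal NuRD ATPase gene, was listed at 0.369, 0.308 and 0.331 FPKM in cisplatin libraries and at 0 in the 3 control libraries. The fragments recovered from these values were 123 over the cisplatin libraries and 0 over the control libraries, at least 34.1-fold higher after cisplatin when 3 fragments over the group stand in for 0. Hdac11, a fatty acyl hydrolase gene of the deacetylase family, had 227 fragments in cisplatin libraries and 1 in control libraries, a ratio of 189 with a 95% interval of 33.6 to 7501. Without molecular identifiers, such intervals cover counting error alone. Chd7 was low in both treatments, at 0.377 ± 0.0825 FPKM in cisplatin and 0.504 ± 0.0650 FPKM in control libraries.

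Both opposite-strand loci were near 0 after cisplatin. Chd3os was listed at 0 in the 3 cisplatin libraries and at 0.979, 0.861 and 1.27 FPKM in control libraries, 0 and 144 fragments, so it was at least 57.6-fold lower after cisplatin. Brd3os measured 0.0650, 0.0172 and 0.0478 FPKM in cisplatin libraries, against 2.59, 2.85 and 3.21 FPKM in control libraries, 6 and 367 fragments. The libraries were made strand-specific, per the labels' protocols, but the strand setting of the counting is not stated there, and its effect on these loci was not tested. In the RefSeq table Brd3os (chr2:27442436-27444221) lies outside the span of Brd3 (chr2:27445576-27507657), and no span was found for Chd3os.

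Partner genes of the same complexes, which carry other names, were read from lists of textbook subunits. Over all tested genes 40.1% were higher and 41.1% lower with a median log2 change of -0.003, and no list was tested against them. SWI/SNF partners were lower in 8 of 13 tested cases and higher in 4 (median log2 change -0.34). The DNA-binding subunits Arid1b (3.78 ± 0.276 FPKM in cisplatin and 13.9 ± 0.248 FPKM in control libraries) and Arid2 (5.76 ± 0.164 FPKM in cisplatin and 14.0 ± 0.251 FPKM in control libraries) were lower, as was Bicral of the non-canonical complex (log2 change -1.53). The genes of the NuRD, SIN3, CoREST and NCoR complexes were higher in 15 of 29 and lower in 8 (median 0.15). Mta2 was higher by 0.68 and Suds3 by 0.91 on the log2 scale. Rcor2 averaged 4.31 ± 0.101 FPKM in cisplatin and 0.880 ± 0.105 FPKM in control libraries. Every control library had Rcor2 under 1 FPKM, so it entered the test through cisplatin alone. Its call, which the count includes, is no support. Polycomb partners were higher in 14 of 31 and lower in 6 (median 0.10), among them Phf19, which recruits PRC2 (6.45 ± 0.409 FPKM in cisplatin and 2.64 ± 0.0498 FPKM in control libraries), Pcgf6 and the deubiquitinase gene Bap1. Partners of the MLL and SET1 enzymes were higher in 2 of 13 and lower in 6 (median 0.04), with Dpy30 higher by 0.60, Psip1 lower by 0.47 and Hcfc1, the remaining riser, higher by 0.34.

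Other acetyltransferase complexes were higher in 19 of 41 and lower in 17 (median 0.05). Supt3 of SAGA averaged 1.01 ± 0.187 FPKM in cisplatin and 6.71 ± 0.252 FPKM in control libraries, and Morf4l2 and Jade1 were lower by 0.59 and 0.72. Other histone methyltransferases were higher in 8 of 19 and lower in 9 (median -0.04). Suv39h2 was higher by 0.95 and Smyd2 by 0.57, while Smyd3 averaged 0.242 ± 0.0778 FPKM in cisplatin and 1.90 ± 0.192 FPKM in control libraries. Suv39h2 was under 1 FPKM in all control libraries and Smyd3 in all cisplatin libraries. Both had to differ to be tested, so their calls, which the counts include, are no support. The ISWI, INO80, SRCAP and ATRX group was higher in 12 of 28 and lower in 8 (median 0.05). The AAA+ ATPase gene Ruvbl1 averaged 61.2 ± 1.13 FPKM in cisplatin and 26.8 ± 0.130 FPKM in control libraries and Ino80b 16.7 ± 0.764 FPKM in cisplatin and 5.06 ± 0.545 FPKM in control libraries, while the ATPase gene Ino80 itself was lower (4.59 ± 0.263 FPKM in cisplatin and 8.95 ± 0.172 FPKM in control libraries). DNA methylation genes were higher in 3 of 10 and lower in 3 (median 0.003), with Uhrf1, which brings DNMT1 to replicated DNA, at 115 ± 5.61 FPKM in cisplatin and 59.6 ± 1.21 FPKM in control libraries, and the DNA demethylase gene Tet3 lower by 0.55.

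Gene span was set beside the changes. With bounds of 25 and 100 kb that were chosen after the values were seen, 1 of 14 members of 100 kb or more was higher (Kdm2b) and 9 were lower, with a median log2 change of -0.52. Among all 1182 tested protein-coding genes of that span, 13.1% were higher and 73.5% lower, with the same median of -0.52. Of the members under 25 kb, 13 of 26 were higher and 8 lower (median 0.16), against 49.8% higher and 32.0% lower among 5042 protein-coding genes (median 0.16). Smarca2, Hdac4, Hdac8, Kmt2c, Kat6b, Chd6, Chd2, Kdm6a and Smarcal1 were the 9 long members that fell. Kat8, Kmt5c and Sirt3, with spans under 25 kb, fell as well. Across the 88 tested members the correlation of span with log2 change was -0.22 by Spearman and -0.03 by Pearson on log10 span, so the 2 measures differed. Across 9777 protein-coding genes both were -0.27. The bin of 100 kb or more holds few members, and the part of span in any change was not tested.

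**Figure D4:**
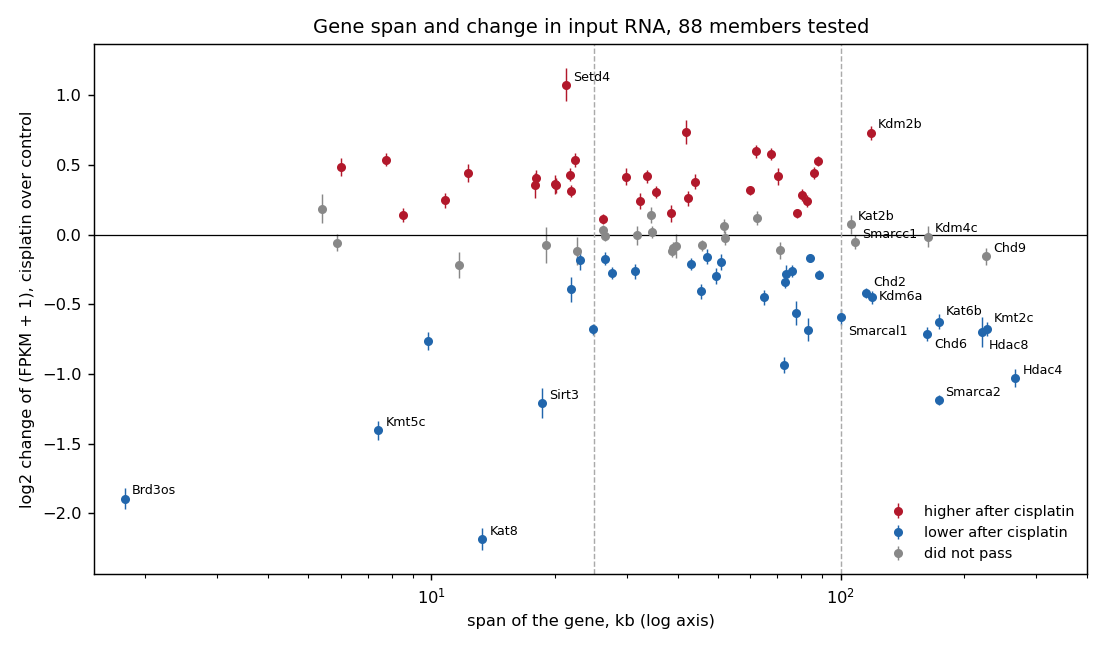
Span of the gene in the RefSeq table (kb, log axis) and log2 change of FPKM + 1, cisplatin minus control input, for the 88 tested members with limma's standard errors (n = 3 libraries per treatment); dashed lines mark 25 and 100 kb. Right of 100 kb, Kdm2b is the single gene called higher and 9 are called lower, whereas Kat8, Kmt5c and Sirt3 fell with short spans.

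Promoters of members with large opposite changes are shown so that what they share can be seen. Each window runs from 250 bases before to 50 bases after the RefSeq start (GRCm38.p6), 5′ to 3′ on the strand of the gene, with GC boxes (GGGCGG or its complement CCGCCC) in capitals. Kat8 and Kmt5c had the largest falls, and Kdm1b and Kdm2b the largest rises, among members of at least 3 FPKM in their higher treatment whose listed start lay close to the end of the gene.
Kat8 (chr7:127912267-127912566, plus strand): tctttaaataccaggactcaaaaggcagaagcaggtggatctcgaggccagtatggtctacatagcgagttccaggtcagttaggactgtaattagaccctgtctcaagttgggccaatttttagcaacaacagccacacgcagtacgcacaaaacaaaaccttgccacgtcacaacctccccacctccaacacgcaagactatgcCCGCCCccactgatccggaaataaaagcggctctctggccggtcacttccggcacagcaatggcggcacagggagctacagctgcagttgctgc
Kmt5c (chr7:4739877-4740176, plus strand): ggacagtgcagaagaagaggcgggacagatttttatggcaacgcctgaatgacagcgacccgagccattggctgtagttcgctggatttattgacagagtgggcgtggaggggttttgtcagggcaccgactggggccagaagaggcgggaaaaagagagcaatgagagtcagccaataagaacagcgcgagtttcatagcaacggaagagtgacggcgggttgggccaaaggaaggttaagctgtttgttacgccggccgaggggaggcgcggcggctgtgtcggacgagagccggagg
Kdm1b (chr13:47043249-47043548, plus strand): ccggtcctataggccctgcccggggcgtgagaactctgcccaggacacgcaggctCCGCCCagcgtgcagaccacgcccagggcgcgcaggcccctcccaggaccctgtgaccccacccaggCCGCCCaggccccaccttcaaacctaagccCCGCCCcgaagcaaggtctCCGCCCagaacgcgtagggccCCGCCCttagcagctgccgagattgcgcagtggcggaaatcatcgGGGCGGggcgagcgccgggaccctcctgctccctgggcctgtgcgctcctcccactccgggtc
Kdm2b (chr5:122989050-122989349, minus strand): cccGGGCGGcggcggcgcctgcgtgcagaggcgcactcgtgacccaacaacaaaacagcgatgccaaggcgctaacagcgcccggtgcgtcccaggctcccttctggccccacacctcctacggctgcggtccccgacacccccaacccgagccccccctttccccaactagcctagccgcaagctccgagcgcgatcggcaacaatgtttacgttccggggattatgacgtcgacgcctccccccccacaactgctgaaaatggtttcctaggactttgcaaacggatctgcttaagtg
The window of Kat8 held 1 GC box, that of Kmt5c none, that of Kdm1b 6 and that of Kdm2b 1. Their G+C content was 53%, 57.7%, 72.3% and 63.7%. Windows were found for 72 of the 92 members, and 66.7% of these held a GC box on either strand, against 68.4% of 7925 windows of tested protein-coding genes and 35.9% of all 27025 windows. The CCAAT box (CCAAT, either strand) was in 38.9% of member windows and 39.2% of tested coding windows, the TATA box (TATAAA) in 2.78% and 6.16%, the ETS core (CCGGAAG) in 19.4% and 20.4%, and the E-box (CACGTG) in 5.56% and 10.8%. Motifs were sought on both strands, and none of them contains another. A match describes letters and not a bound factor.

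The second question was where ac4C peaks lay in these transcripts and which differed between treatments. The authors' deposited table lists 19049 peaks, each with an enrichment of IP over input, a log2 difference between treatments and an adjusted p, but no values per library. The direction of that log2 difference is not stated, so signs are given as deposited and not read as higher or lower after cisplatin. All values of peaks that follow are those of the authors' deposited table. Without values per library, enrichments that rest on few input reads could not be set apart. The members held 238 peaks in 74 genes, and 124 of them had an adjusted p under 0.05, 99 with a positive and 25 with a negative difference. Of all peaks, 46.2% were called, 36.5% positive and 9.62% negative, against 52.1% called among the members' peaks. A called peak was found in 55 of the 74 genes, against 56.1% of all 8797 genes with a peak. The members held more peaks per gene, which gives more chances of a called one, and genes of equal peak number were not compared.

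Genes of methyl writers and remodelers held the most peaks. Kmt2d had 16 peaks, 8 of them called, Kmt2a 10 (5 called), Chd3 9 (5 called), and Chd4, Chd8 and Setd2 had 7 each. All 7 peaks of Chd4 were called, 5 positive and 2 negative, although its input level was not called. All 6 peaks of the demethylase gene Kdm5c were called too, 3 of each sign, and its input level was not called. Peaks of both signs were called in 18 of the 55 genes with a called peak. The share of such genes over the whole series was not counted, so this describes the members alone. The number of peaks per member went with its input level (Spearman rho 0.46 over 88 tested genes that share these libraries).

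By class, 36 of 76 peaks were called in methyl writers, 10 of 17 in acetyl writers, 26 of 43 in demethylases, 9 of 19 in deacetylases, 37 of 65 in remodelers and 6 of 18 in bromodomain readers. Of all peaks of the series, 46.2% were called, 36.5% positive and 9.62% negative. Methyl writers and deacetylases, each with 47.4% of their peaks called, were near that share. Demethylases held 9 of the 25 negative differences, beside 17 positive ones. Writers together had 39 positive and 7 negative called peaks, erasers 25 positive and 10 negative, and remodelers 31 positive and 6 negative. Each gene can hold several peaks that share its RNA, so peaks are not replicates and the classes were not tested against each other.

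**Figure D5:**
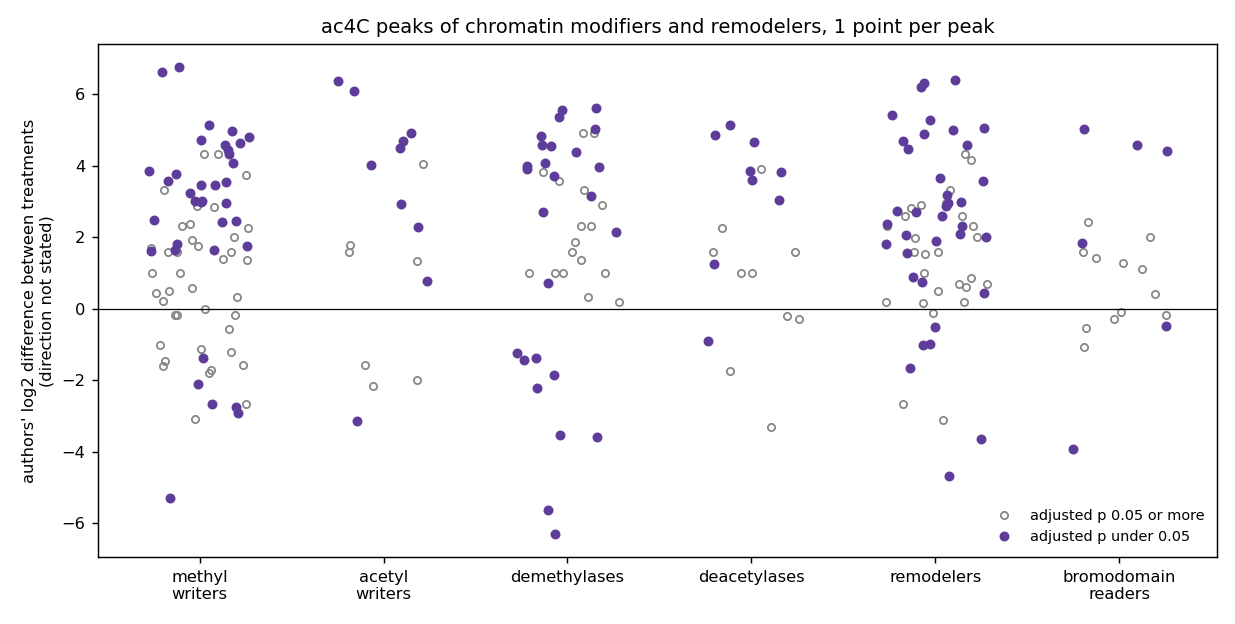
The authors' log2 difference between treatments for each of the members' 238 ac4C peaks (points, spread sideways at random within a class), by class; filled points have the authors' adjusted p under 0.05. The direction of the difference is not stated in the file, and each class has filled points on both sides of 0, with 99 positive and 25 negative in all. Of all peaks of the series, 36.5% were called positive and 9.62% negative.

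Among methyl writers the largest difference was that of Kmt2b, in coding sequence at chr7:30569398-30570010 of mm10, with an enrichment of 37.6-fold and a log2 difference of 6.75 (authors' adjusted p = 7.24e-05). A second Kmt2b peak, chr7:30575094-30575274, had 6.63 (authors' adjusted p = 0.000513). The coordinates mark the outermost bases of a peak and may span introns. A Setd5 peak (chr6:113130311-113138031, coding) had the lowest difference of the class, -5.29, with an enrichment of 43.5-fold. Of the acetyl writers, a coding peak of Kat6a (chr8:22938100-22938430, exonic width 331 bp) had 6.38 and a coding peak of Kat5 (chr19:5609315-5610034) had 6.08, and a peak in the 3′ untranslated region of Kat5 had 4.91. Kat8, the member with the largest fall, had 2 coding peaks, neither of which was called.

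Of the erasers, Kdm6b held the most enriched of all the members' peaks, 96.4-fold in coding sequence at chr11:69403668-69404043, with a log2 difference of 5.61 (authors' adjusted p = 5.01e-17). A 3′ untranslated peak of Kdm4a (chr4:118137796-118137975) and an exon peak of Kdm5c (chrX:152273335-152273485) had the lowest differences of all members, -6.31 and -5.65. Deacetylase peaks were fewer, led by a coding peak of Sirt1 (chr10:63320772-63321795, log2 difference 5.13) and exon peaks of Hdac6 with 4.87 and 4.67. Kdm1b and Kdm2b, which rose in the input, had called peaks of opposite sign, 3.16 in the 3′ untranslated region of Kdm1b and -1.37 in coding sequence of Kdm2b.

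In remodelers, coding peaks of Chd2 (chr7:73484570-73490631, 6.40), Smarca5 (chr8:80708718-80709523, 6.30) and Chd3 (chr11:69350876-69352114, 6.21) had the largest differences. Smarca4 had 4 coding peaks, 3 of them called and positive, at 0.743, 2.72 and 1.56. No peak was listed for Smarca2, although its mean input level of 38.1 FPKM was the highest of the 18 members without a peak. Setd3 (21.6 FPKM) and Smarcb1 (18.9 FPKM) followed, and Kmt5c, Kat6b and Sirt3 also had none. Chd1 had 3 coding peaks, all called and positive (2.09, 4.70 and 4.88). Of the readers, a 3′ untranslated peak of Brd2 (chr17:34113730-34113949) had 5.02, coding peaks of Brd8 and Brd7 had 4.58 and 4.40, and Brd3 had a coding peak of each sign, 1.83 and -3.92. Of the 92 members, 74 (80.4%) held a peak, and at a mean of 5 FPKM or more it was 56 of 62 (90.3%), against 63.6% and 81.4% of protein-coding genes.

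The members' peaks lay in coding sequence in 171 of 238 cases (71.8%), against 54.1% of all 17751 peaks of protein-coding genes. In the 3′ untranslated region there were 42 (17.6%, against 31.6%), in other exon 24, and in the 5′ untranslated region 1, that of Brd8. Within coding sequence 56.7% of the members' peaks were called, against 55.9% of those of all protein-coding genes. The exonic width of the members' peaks was 120 to 811 bp with a median of 210 bp, and the median enrichment was 6.11, against 181 bp and 6.88 over all protein-coding peaks. The members' peaks had a median log2 difference of 1.98, against 1.61.

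Input and peak differences were then set side by side. Members called higher in the input had 110 peaks, 60 of them called (51 positive and 9 negative), and members called lower had 59 peaks, 23 of them called (19 positive and 4 negative). Members not called had 68 peaks with 41 called, 29 positive and 12 negative. Of all peaks of the series, 46.2% were called. Positive differences were the larger number in each set, as they were over the whole series, where 6959 of 8792 called peaks were positive. Across 73 tested members with a peak, the log2 change in input and the median log2 difference of the peaks had a Pearson r of 0.155 and a Spearman rho of 0.119, and both measures draw on the same input libraries.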

How the data were processed

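Fragmented ID8 RNA was measured as ac4C IP and input libraries, 12 in 4 groups of 3 taken from the sample titles. Per the submitters' processing notes, the tools included HISAT2, HOMER, fastp and FastQC on mm10, and which peak caller, annotation and counting settings were used is not stated. The authors deposited FPKM values for the 6 input libraries, with their own log2 fold change and p-value per gene. The deposited peak table holds, per the file headers, a ratio of IP over input (fold enrichment), a log2 difference between treatments, and log10 p values, which are used as a score.

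Genes that reached 1 FPKM in at least 3 of the 6 input libraries were tested on log2(FPKM + 1) with limma 3.58.1 (R 4.3.3, lmFit and eBayes with trend), 3 cisplatin against 3 control libraries, with Benjamini-Hochberg adjustment over 11449 genes. Adjusted p-values of input RNA come from this fit, or from the same fit with the change of setting that stands beside the value, and those of peaks are the authors'. Tested on simulated data, the fit called all 50 genes at 2-fold up, 50 of 50 at 2-fold down, 96% at 1.5-fold up, 86% at the matching fall and 0.12% of 10700 unchanged genes. The simulation used a single setting of spread for all genes, and its changed genes averaged at least 3 FPKM in control libraries. Few of its genes changed, whereas 81.3% of the real genes were called, so these rates may not hold for the real data. FPKM steps gave whole fragments for 14850 of 14852 genes (tolerance 0.0001), used for low genes and for limma voom.

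Members and lists were chosen with earlier results of these data known. Any member could be named. Values per library were given for up to 5 members of a class with the smallest adjusted p whose higher mean was at least 3 FPKM, for changes of 1 or more on the log2 scale, and for members listed at 0 in a group. Up to 3 genes per partner list and 3 called peaks per class were named, with the peaks of those members. Values of 1 member and 1 partner gene are not reported here by name. Gene spans and promoters are from RefSeq (GRCm38.p6), and 91 of 92 members had a span. No pairing by replicate number was seen. Correlations of same-numbered deviations were 0.10, -0.12 and 0.04, against -0.17 to 0.08 for different numbers. Deviations from means of 3 libraries cannot exclude that the samples were paired. Summaries and plots used Python 3.11.15, with scipy 1.17.1, pandas 2.3.3 and matplotlib 3.10.9.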

Additional observations from a re-analysis of the deposited data

How the results depend on the processing

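The counts of members called, 32 higher and 34 lower, stayed within 1.5 times under every alternative run. They were 32 and 33 with a pseudocount of 0.1, 24 and 25 of 64 tested with a filter at 5 FPKM, 34 and 34 of 92 without a filter, 28 and 42 with a common FPKM sum, and 32 and 38 with quantile normalization. Leaving out a library gave 27 to 30 higher and 27 to 36 lower. Of the members, 84 were tested without a control library and 86 without a cisplatin library. The adjusted p of the authors' deposited table gave 35 and 36, and limma voom on recovered fragments, chosen after seeing the data, gave 29 and 41. With the replicate number as a block the counts were 31 and 35, although no pairing by number was seen. The common sum moved the median log2 change of all genes from -0.003 to -0.087. Of 66 called members, 48 were tested under every setting, and 42 of these kept their call throughout. The 18 others were filtered out under at least 1 setting, 6 of them when a library was left out. Calls were lost by Kmt2a, Kmt5b, Kat5, Kat7, Brd1, Brd8 and Brd9, no called member changed sign where it was tested, and 14 members not called gained a call. Called changes of 1 or more on the log2 scale, 1 upwards and 6 downwards, numbered 0 and 2 with the 5 FPKM filter, 1 and 4 with quantile normalization, 1 and 9 with voom, and 0 or 1 and 3 to 6 with a library left out. Of 238 peaks, 124 were called, 102 of them at an adjusted p of 0.01, 115 with a log2 difference of at least 1 in size, 107 with an enrichment of at least 2-fold, and 124 within the span of their gene. With 3 libraries per treatment, no exact permutation test of a single value can fall below 0.1.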
